A study of Mus musculus with 4 samples.

Results

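The death receptor signalling complex was examined here as 10 genes: the receptors Fas, Tnfrsf1a and Tnfrsf10b, the adaptors Fadd and Tradd, the caspase-8 regulator Cflar, the kinases Ripk1 and Ripk3, and the signalling adaptors Traf1 and Traf2. Each was read through every probe set that the annotation of the array assigned to that gene alone, which gave 18 of 45037 probe sets and covered 9 of the 10 genes. No value is given for Ripk1. The cells were CD4+CD25+ T-cells from lymph nodes of C57BL/6 mice aged 6 to 12 weeks, taken 3 days after intraperitoneal injection of D665, a superagonistic antibody to CD28 (CD28SA). All cells were cultured overnight with 2 µg/ml of anti-CD3, 5 µg/ml of anti-CD28 and 200 U/ml of human IL-2, stained for IL-10 and then sorted. Both groups thus carry the same treatment and were separated by the sort. Control transcripts added for labelling also differed between the groups, as given below. There were 2 IL-10+ samples (replicates 1 and 2) and 2 IL-10- samples (replicates 3 and 4), with 1 Affymetrix array each, and none from untreated mice. The labels name CD25 and no gate on Foxp3, and nothing states whether the 2 samples of a group derive from different mice or sorts, so a p-value reflects the spread among these arrays alone, which may be technical.

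Death receptors are members of the TNF receptor superfamily that carry a death domain in the cytoplasm. After binding its ligand, Fas recruits FADD and caspase-8 directly, whereas TNF receptor 1 first assembles TRADD, RIPK1 and TRAF2 into a complex that drives NF-kB and kinase signalling and only secondarily a death-inducing complex. FLIP, the product of Cflar, regulates how much caspase-8 activity such a complex releases, and RIPK3 carries the signal to necroptosis where caspase-8 is held back. In T-cells this machinery is best known from activation-induced cell death, by which expanded clones are removed.

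Values are the deposited values of single probe sets, read here as log2, although the legends of the study give the differences on these arrays as natural logs. Folds are therefore printed for both readings. In what follows, differences are IL-10+ minus IL-10-, and intervals are 95% intervals from limma. The words rose and fell are kept for probe sets with a limma p under 0.05 after Benjamini-Hochberg adjustment over all 45037. The comparison asked which parts of the complex differed between cells that did and did not secrete IL-10. Of the 18 member probe sets, 4 rose and 3 fell, and 11 did not pass. Over all probe sets, 13.6% rose and 16.2% fell (6133 and 7307 probe sets, 4668 and 10076 after median centring), so the members' share of 22.2% higher rests on 4 probe sets and that of 16.7% lower is at the background. The 4 that rose belong to Cflar (2), Traf1 and Ripk3, and the 3 that fell to Fas, Fadd and Tradd. At the threshold of the study, 2-fold or more at an adjusted p below 0.001, 1 probe set of Cflar and 1 of Traf1 remained, both higher, where 1.72% of all probe sets were higher and 0.575% lower. Over the 18 probe sets the differences had a median of 0.02, against 0.01 over all. Both IL-10+ arrays lay above both IL-10- arrays for 6 member probe sets and below them for 6, and the groups overlapped for the remaining 6. Over all probe sets, 32.5% lay above and 30.5% below.

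**Figure D1:**
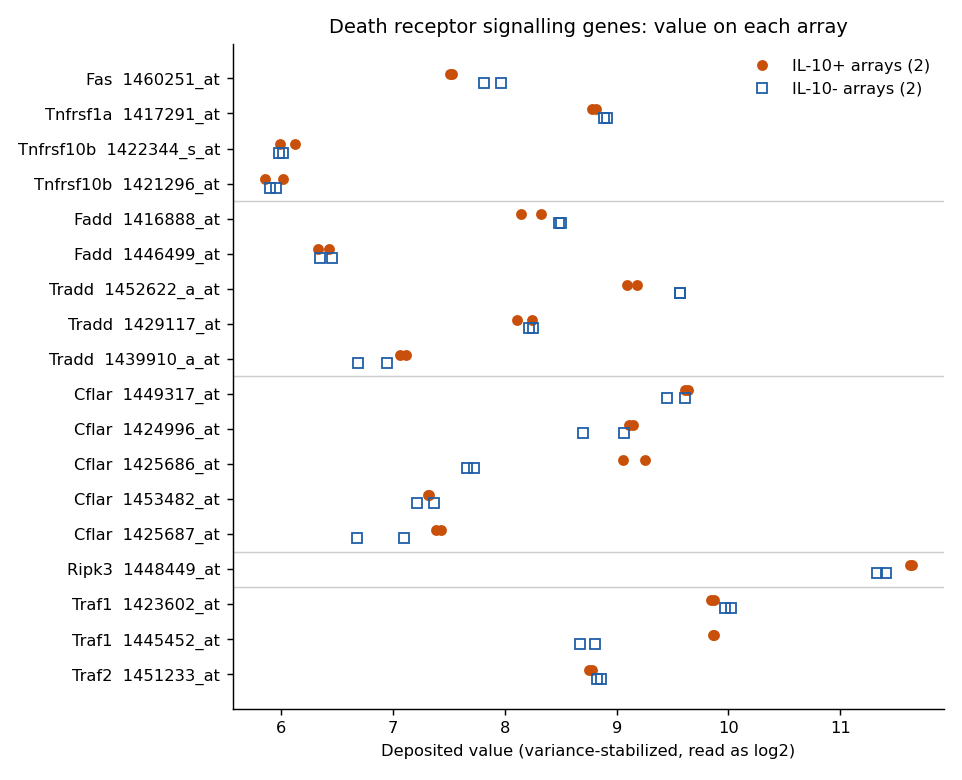
Deposited value (horizontal axis, variance-stabilized and read as log2) of each of the 18 member probe sets on the 2 IL-10+ arrays (filled circles) and the 2 IL-10- arrays (open squares), with lines between the receptor, adaptor, FLIP, kinase and TRAF groups. The 2 groups stand far apart for 1 probe set of Cflar (about 9.15 against 7.69) and 1 of Traf1 (9.87 against 8.74), and close together for most others.

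Among the receptors, Fas fell and the others did not pass. Fas, which encodes the death receptor CD95, has 1 probe set (1460251_at). It stood at 7.51 and 7.52 on the IL-10+ arrays and at 7.97 and 7.81 on the IL-10- arrays, so both IL-10+ values lay below both others. The difference was -0.37 (standard error 0.07, interval -0.54 to -0.20, limma adjusted p = 0.00655), a 1.30-fold lower level on the log2 reading and 1.45-fold on the natural log reading. The median difference of the 2832 probe sets with a mean value within 0.25 of that of Fas was -0.06. In each of 9 alternative settings Fas still fell, by 0.30 to 0.45 on the log2 scale.

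The sequence before the Fas start site is shown because Fas was the receptor that fell and because this window held a match to a searched motif. The stretch of 250 bases (GRCm38.p6, chr19:34290409-34290658, + strand, RefSeq) is given with the match in capitals.
Fas upstream region: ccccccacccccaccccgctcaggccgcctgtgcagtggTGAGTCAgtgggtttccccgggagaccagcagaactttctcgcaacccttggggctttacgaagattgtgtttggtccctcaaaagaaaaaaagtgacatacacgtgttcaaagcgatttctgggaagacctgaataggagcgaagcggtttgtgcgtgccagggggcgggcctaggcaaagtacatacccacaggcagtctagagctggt
The capitals mark TGANTCA, a motif of AP-1 factors, searched on both strands, which begins 211 bases before the start site. Of 32851 promoter windows of 300 bases, 7.81% hold it. A match is a description of letters and no evidence of binding in these cells.

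Tnfrsf1a, the gene of TNF receptor 1, was read by 1 probe set (1417291_at) with 8.78 and 8.81 in IL-10+ against 8.89 and 8.91 in IL-10- cells. The groups did not overlap, but the difference of -0.10 (interval -0.25 to 0.04, limma adjusted p = 0.283) did not pass and lay near the median of -0.14 of probe sets of like level. Tnfrsf10b encodes the TRAIL receptor of the mouse. Its brighter probe set (1422344_s_at, whose suffix marks possible matches to related transcripts) was at 6.12 and 5.99 against 6.01 and 5.97, and the other (1421296_at) at 6.01 and 5.85 against 5.90 and 5.95. The arrays of both groups overlapped in both probe sets. Their mean values, 6.02 and 5.93, lay below the median level of 6.37 over all probe sets, and whether the transcript was detected was not tested. The differences were 0.06 (interval -0.10 to 0.23) and 0.01 (interval -0.17 to 0.19), with limma adjusted p of 0.592 and 0.948.

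Both adaptors fell in their brightest probe set and not in their other ones. Fadd encodes the death domain adaptor that bridges Fas to caspase-8. Its probe set 1416888_at stood at 8.32 and 8.14 in IL-10+ and at 8.50 and 8.48 in IL-10- cells, a difference of -0.26 (standard error 0.08, interval -0.44 to -0.08, limma adjusted p = 0.0380). Leaving out IL-10+ replicate 2 ended this call (-0.17, adjusted p = 0.296), as did quantile normalization (-0.21, adjusted p = 0.110). The dimmer probe set of Fadd (1446499_at) had 6.33 and 6.42 against 6.34 and 6.45, with overlapping groups and a difference of -0.03 (interval -0.19 to 0.14, limma adjusted p = 0.846).

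Tradd, the death domain adaptor of TNF receptor 1, had the largest fall among the members and also a probe set on the other side of 0. Its brightest probe set (1452622_a_at, the suffix marking transcripts of 1 gene) was at 9.18 and 9.09 in IL-10+ and at 9.57 and 9.57 in IL-10- cells. The difference of -0.43 (standard error 0.07, interval -0.59 to -0.28, limma adjusted p = 0.00196) kept its call in all 9 alternative settings. A second probe set (1429117_at) stood at 8.11 and 8.24 against 8.25 and 8.21 and differed by -0.05 (interval -0.22 to 0.11, limma adjusted p = 0.648). The third (1439910_a_at) was at 7.11 and 7.06 in IL-10+ and at 6.94 and 6.69 in IL-10- cells. It differed by 0.27 (interval 0.06 to 0.48, limma adjusted p = 0.0625), and the size depended on the IL-10- arrays, with 0.40 (adjusted p = 0.00114) when replicate 3 was left out and 0.14 (adjusted p = 0.200) when replicate 4 was. Tested among probe sets above the median level alone, it also rose (adjusted p = 0.0473). With its 3 probe sets averaged, Tradd differed by -0.07 (limma adjusted p = 0.382).

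**Figure D2:**
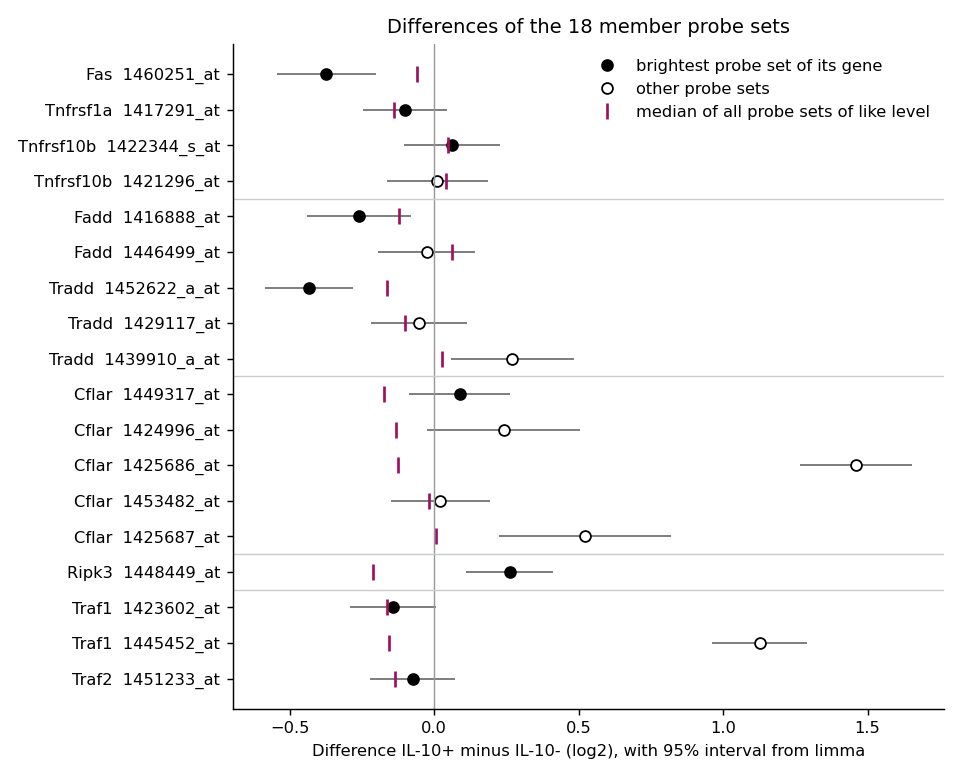
Difference between the groups (horizontal axis, IL-10+ minus IL-10-, log2) with its 95% interval from limma for each member probe set, filled for the brightest probe set of a gene and open for the others. Vertical ticks give the median of all probe sets with a mean within 0.25 of that probe set, and Cflar 1425686_at (1.46) and Traf1 1445452_at (1.13) lie farthest from theirs.

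Cflar, which encodes the caspase-8 regulator FLIP in a long and a short form, was higher in IL-10+ cells in 2 of 5 probe sets, and the 5 differences ran from 0.02 to 1.46. The largest was in 1425686_at, with 9.05 and 9.26 on the IL-10+ arrays against 7.73 and 7.66 on the others. Here the gap between the groups was many times the spread within them, with a difference of 1.46 (standard error 0.08, interval 1.27 to 1.65, limma adjusted p = 2.98e-05), which is 2.75-fold on the log2 reading and 4.31-fold on the natural log reading. In the 9 alternative settings it stayed between 1.36 and 1.56. The other probe set that rose, 1425687_at, was at 7.39 and 7.43 against 6.67 and 7.10, a difference of 0.52 (standard error 0.13, limma adjusted p = 0.0176). Leaving out IL-10+ replicate 2 ended its call (0.50, adjusted p = 0.0573), and its size was 0.31 without IL-10- replicate 3 and 0.74 without replicate 4. The annotation lists the same source transcript for both of these probe sets, so that they are not independent readings of the gene.

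The remaining probe sets of Cflar did not pass. The brightest of the gene (1449317_at) stood at 9.64 and 9.61 in IL-10+ and at 9.45 and 9.61 in IL-10- cells, with overlapping groups and a difference of 0.09 (interval -0.09 to 0.26, limma adjusted p = 0.447). Probe set 1424996_at was at 9.11 and 9.14 against 8.70 and 9.07, where the 2 IL-10- arrays themselves lay apart. It differed by 0.24 (limma adjusted p = 0.166) with 0.42 (adjusted p = 0.000719) when IL-10- replicate 4 was left out and 0.057 (adjusted p = 0.627) when replicate 3 was. The fifth (1453482_at) was at 7.31 and 7.32 against 7.22 and 7.37 and differed by 0.02 (interval -0.15 to 0.19, limma adjusted p = 0.875). Averaged over its 5 probe sets, Cflar rose by 0.47 (standard error 0.07, limma adjusted p = 0.00308). The span of 1.44 between the lowest and highest difference of Cflar was wider than that of most genes with 5 probe sets, whose median span was 0.66 (percentile 84.2 of 463 genes).

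Ripk3, the kinase that activates the necroptosis effector MLKL, rose slightly. Its only probe set (1448449_at) stood at 11.64 and 11.62 on the IL-10+ arrays and at 11.41 and 11.33 on the IL-10- arrays, with no overlap. The difference was 0.26 (standard error 0.07, interval 0.11 to 0.41, limma adjusted p = 0.0197), against a median of -0.21 for the 421 probe sets of like level. Median centring ended the call (0.18, adjusted p = 0.0666), and so did leaving out either IL-10+ array (0.25 and 0.27, with adjusted p of 0.129 without replicate 1 and 0.102 without replicate 2), while Ripk3 stayed above 0 in all 9 alternative settings.

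Traf1, an adaptor that is induced by NF-kB in activated lymphocytes and binds TRAF2, gave different answers by probe set. Probe set 1445452_at was at 9.86 and 9.87 on the IL-10+ arrays against 8.67 and 8.81 on the others. Both IL-10+ values lay over 1 unit above both others, and the difference of 1.13 (standard error 0.07, interval 0.96 to 1.29, limma adjusted p = 4.20e-05) was 2.18-fold on the log2 reading and 3.08-fold on the natural log reading, and kept its call in all 9 alternative settings. The brightest probe set by its mean over the 4 arrays (1423602_at) was at 9.87 and 9.84 against 9.97 and 10.03. It differed by -0.14 (interval -0.29 to 0.01, limma adjusted p = 0.142) and fell once the arrays were centred on their medians (-0.22, adjusted p = 0.0388). Averaged over both probe sets, Traf1 rose by 0.49 (standard error 0.05, limma adjusted p = 0.000603). Their span of 1.27 was at percentile 98.1 of the 4695 genes with 2 probe sets, whose median span was 0.18.

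Traf2, the ubiquitin ligase adaptor that brings the cellular inhibitors of apoptosis to the receptor, did not pass. Its probe set (1451233_at) stood at 8.75 and 8.78 in IL-10+ and at 8.86 and 8.82 in IL-10- cells. The groups did not overlap, yet the difference was only -0.07 (interval -0.22 to 0.07, limma adjusted p = 0.445), above the median of -0.13 for probe sets of like level. Traf2 was also the member whose promoter window held the searched NF-kB motif (both strands), here 31 bases after the start site, and the bases around it are shown for that reason (GRCm38.p6, chr2:25546891-25546919, - strand, RefSeq), with the match in capitals.
Traf2 start region: gcggcagcggGGGTGTTTCCcggcgagcg
The search took any base at the T and G in the middle of the capitals and the printed base elsewhere, and 1.63% of all promoter windows hold such a match. Windows were at hand for 8 of the 10 members, and those of Tnfrsf1a, Fadd, Cflar, Ripk1, Ripk3 and Traf1 held neither motif, which says only that these letters are not in those 300 bases.

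**Figure D3:**
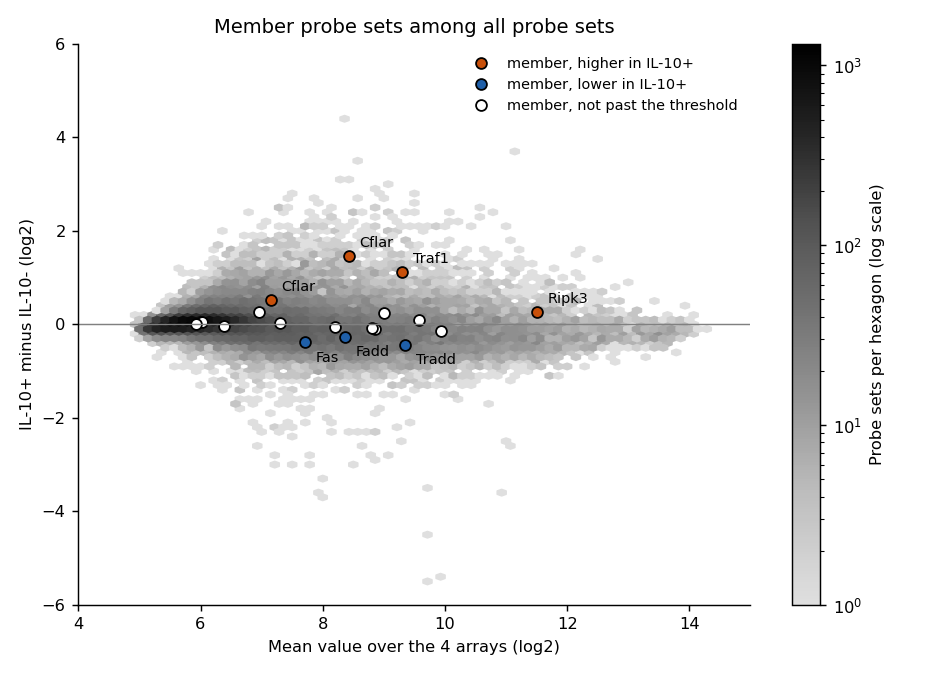
Mean value over the 4 arrays (horizontal axis, log2) against the difference between the groups (vertical axis, log2) for all probe sets, shaded by their number on a log scale, with the 18 member probe sets as circles, orange where higher, blue where lower and white where not past the threshold. The member probe sets of Cflar (1.46) and Traf1 (1.13) lie in the upper part of the cloud, below its highest probe sets, and those of Fas, Fadd and Tradd within its lower side.

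Counted by the brightest probe set of each gene, 1 of 9 members rose (Ripk3) and 3 fell (Fas, Fadd and Tradd), where 8.37% of 18193 genes rose and 22.9% fell. Counted by the mean over all probe sets of a gene, 3 rose (Cflar, Traf1 and Ripk3) and 1 fell (Fas), where 12.2% of genes rose and 18.4% fell. Of the 5 members with several probe sets, 0 had calls on both sides of 0 (1, Tradd, without IL-10- replicate 3 or among probe sets above the median level, and 1, Traf1, after median centring), against 12% of the 9010 genes with several probe sets, a share that was 6.02% without IL-10+ replicate 1 and 5.94% without replicate 2. On the same arrays 4 control transcripts that are added to the RNA for labelling (dap, lys, phe and thr) differed between the groups by their position. In IL-10+ samples their 5' probe sets stood higher by 0.62 to 2.16 (median 1.16 over 8 probe sets), the middle ones by 0.31 to 1.16 and the 3' ones by -0.23 to 0.21. Control probe sets for beta-actin and Gapdh, which are transcripts of the cells themselves, also differed by position. From 5' over the middle to 3' the differences were 1.12, 0.90 and 0.40 for beta-actin and 0.88, 0.33 and 0.02 for Gapdh. The files do not say where on the transcripts the probe sets of Cflar, Traf1 and Tradd lie, and the part of transcript position in their differences was not tested.

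The surrounding pathway was read from 66 genes in 8 lists by role, of which 60 were measured. By their brightest probe sets 8 rose (4 without IL-10+ replicate 1), 26 fell and 26 did not pass, where 8.37% of all genes rose and 22.9% fell, with a median difference of -0.19 against -0.01 over all genes. By the mean over the probe sets of each gene, 11 rose and 18 fell, where 12.2% and 18.4% of all genes did. The choice of the brightest probe set leans downward on these arrays: of the 1078 genes with calls on both sides of 0, the brightest probe set was the lower one in 795 and the higher one in 113. Bright probe sets were lower in general, with medians of -0.12 for values from 8 to 9 and -0.15 from 9 to 10. Among the ligands, Fasl, which encodes the ligand of Fas, rose in both probe sets. Its brighter one went from 6.45 and 6.46 in IL-10- to 6.68 and 6.67 in IL-10+ cells, a difference of 0.22 (limma adjusted p = 0.0331). Its call was lost after quantile normalization or median centring (0.14 in both, adjusted p = 0.132 and 0.155) and when IL-10+ replicate 1 or 2 was left out (adjusted p = 0.197 and 0.164). The dimmer one was at 6.57 and 6.57 in IL-10+ and at 6.21 and 6.13 in IL-10- cells and differed by 0.40 (limma adjusted p = 0.00267). Both probe sets of Fasl were dim, with mean values of 6.57 and 6.37 near the median level of 6.37 over all probe sets. Lta, the gene of lymphotoxin alpha, fell by 0.73 on the log2 scale, and Tnfsf10, which encodes TRAIL, fell in 2 of 3 probe sets, by 0.69 and 0.59. Tnf differed by -0.11 (limma adjusted p = 0.343). Thus 1 of 4 ligands rose and 2 fell, by the brightest probe set and by the mean over probe sets alike.

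Of 8 other receptors of the superfamily, 2 rose and 2 fell (3 and 1 by the mean over probe sets). Tnfrsf23, a decoy receptor for TRAIL in mice, rose by 0.70, and Tnfrsf25, the death domain receptor DR3, fell by 0.70. Tnfrsf1b, the gene of TNF receptor 2, which lacks a death domain, fell by 0.58 in its brightest probe set (limma adjusted p = 0.00544) and rose by 1.60 in the other (limma adjusted p = 0.000349). Among 5 genes of the caspase arm, 2 rose and 1 fell (2 and 0 by the mean over probe sets). Casp8, the initiator caspase that FADD recruits, stood at 10.88 and 10.93 in IL-10+ and at 10.51 and 10.85 in IL-10- cells. Its difference of 0.22 (limma adjusted p = 0.186) was 0.39 (adjusted p = 0.00133) when IL-10- replicate 4 was left out and 0.048 (adjusted p = 0.688) when replicate 3 was, and it passed on quantile normalized arrays (0.34, adjusted p = 0.0286). Casp6, an executioner caspase, rose by 0.82 in its brightest probe set and differed by -0.06 in the other (limma adjusted p = 0.566). Bid, which links caspase-8 to mitochondria, fell by 0.38 in its brightest probe set and rose by 0.45 in a dimmer one, and Dffa, the inhibitor of the caspase-activated DNase, rose by 0.30 (limma adjusted p = 0.0300), a call that ended after median centring (adjusted p = 0.0631) and when IL-10+ replicate 1 (adjusted p = 0.218) or IL-10- replicate 4 (adjusted p = 0.0612) was left out.

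Necroptosis partners had 0 of 6 genes higher and 3 lower (0 and 2 by the mean over probe sets). Mlkl, the effector that RIPK3 phosphorylates, was at 7.08 and 7.11 in IL-10+ and at 7.04 and 7.07 in IL-10- cells and differed by 0.04 (interval -0.11 to 0.18, limma adjusted p = 0.726). By the brightest probe set, Ticam1 (-0.62), the adaptor TRIF of Toll-like receptors, and Pgam5 (-0.56), a mitochondrial phosphatase, fell. So did Spata2 (-0.26, limma adjusted p = 0.0445), which tethers the deubiquitinase CYLD to the receptor complex. The other probe set of Spata2 differed by 0.12 with overlapping groups (limma adjusted p = 0.392). The call of Spata2 ended after quantile normalization (adjusted p = 0.0920), with an intensity trend in the prior (0.0523) and when IL-10+ replicate 1 (0.138) or 2 (0.184) or IL-10- replicate 4 (-0.16, 0.135) was left out. Of 9 genes of the ubiquitin and IAP arm, 2 rose and 4 fell by the mean over probe sets, and 0 rose and 5 fell by the brightest probe set. All 3 subunits of the linear ubiquitin chain assembly complex were among them: Rnf31 (-0.71), its catalytic subunit, Rbck1 (-0.68) and Sharpin (-0.24), the last named after its values were seen. The call of Sharpin (limma adjusted p = 0.0434) ended after quantile normalization (-0.13, adjusted p = 0.291) and when IL-10+ replicate 1 or 2 (adjusted p = 0.194 and 0.154) or IL-10- replicate 3 (adjusted p = 0.121) was left out. These settings were read for the brightest probe set of Sharpin only. The other probe set of Sharpin also fell (-0.34, limma adjusted p = 0.0057), with no overlap between the groups. So did the mean over both probe sets (-0.29, limma adjusted p = 0.0077). Tnip1, a ubiquitin-binding restraint on NF-kB, fell by 0.44. Birc2 (-0.27, limma adjusted p = 0.0850) and Birc3 (0.15, limma adjusted p = 0.176), the cellular inhibitors of apoptosis that TRAF2 binds, did not pass. When the arrays were centred on their medians Birc2 fell (-0.35, adjusted p = 0.0283), and when they were quantile normalized Birc3 rose (0.27, adjusted p = 0.0193). When IL-10- replicate 3 was left out, Birc2 differed by -0.42 (adjusted p = 0.000647) and Birc3 by 0.078 (adjusted p = 0.487). When replicate 4 was, it was -0.12 (adjusted p = 0.291) for Birc2 and 0.23 (adjusted p = 0.0402) for Birc3.

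In the kinase and NF-kB arm 1 of 15 genes rose and 6 fell (2 and 6 by the mean over probe sets). Ikbkb, which encodes the catalytic subunit IKK-beta, fell by 0.88 in its brightest probe set, and 2 of its 4 others rose, by 0.51 and 0.89. Nfkbie, an inhibitor of NF-kB, fell in both probe sets (-0.82 and -0.68), and Relb, a subunit of NF-kB, fell by 0.60. Among 4 further genes of TRAF proteins and their partners, 1 rose and 2 fell (1 and 1 by the mean over probe sets). Tank, a protein that binds TRAFs, rose in both probe sets, by 0.75 and 1.02, and Traf5 fell by 0.33, though not when IL-10+ replicate 2 was left out (-0.30, adjusted p = 0.0890). Traf6 fell by 0.55 in its brightest probe set and rose by 0.41 and 0.48 in 2 of its 4 others. Of 9 modulators of the complexes, 1 rose and 5 fell (0 and 2 by the mean over probe sets). Lower by the brightest probe set were, among others, Dap3 (-0.71), also a protein of the mitochondrial ribosome, Faf1 (-0.68), which binds Fas, and Madd (-0.67), which binds TNF receptor 1. The dimmer probe sets of Faf1 and Madd rose, by 0.51 and 0.40. Calls on both sides of 0 were found for 12 of the 38 pathway genes with several probe sets, against 12% of all such genes (1078 of 9010). These numbers were 10 and 978 among probe sets above the median level alone, and 13 and 962 after quantile normalization. The pathway genes were not matched to the others by number of probe sets: 4695 of the 9010 genes had 2, while Xiap had 7. In 8 of the 12 the brightest probe set was the lower one and in 0 the higher one.

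**Figure D4:**
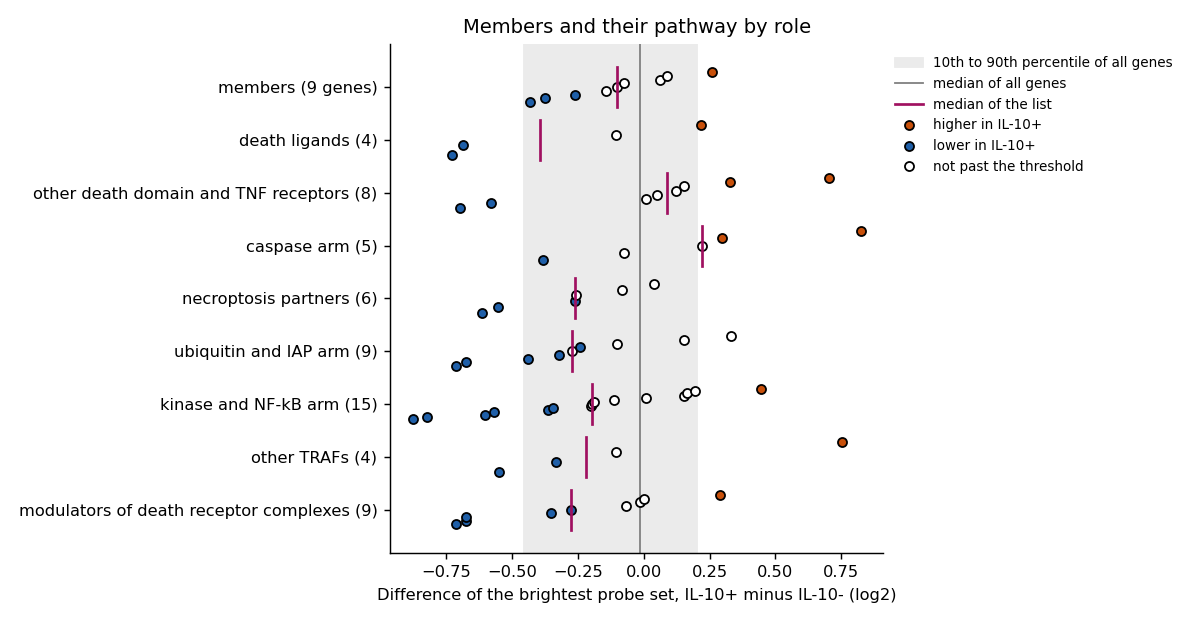
Difference of the brightest probe set of each gene (horizontal axis, IL-10+ minus IL-10-, log2) for the 9 members and the 8 pathway lists, with the number of genes in brackets, the median of each list as a vertical line and the 10th to 90th percentile of all genes as a grey band. Blue points, lower in IL-10+ cells, outnumber orange ones in 6 of the 8 lists, and the other receptors hold 2 of each.

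The sort and the cell type were checked on the same arrays. Il10 was at 12.02 and 12.00 on the IL-10+ arrays against 10.41 and 10.37 on the others, a difference of 1.62 (limma adjusted p = 7.78e-06). The 9 markers of T-cells and Tregs had mean values from 10.34 to 13.05, of which 3 rose and 2 fell. Those that rose were Ctla4 (0.87), Cd4 (0.51 in its brightest probe set) and Cd3g (0.41). Those that fell were Foxp3, which defines Tregs (-0.72 on the log2 scale), and Ikzf2 (-0.55 in its brightest probe set). Averaged over its 2 probe sets, Cd4 differed by 1.79 (limma adjusted p = 1.41e-05), so its dimmer probe set rose by more than the brightest. Ikzf2 differed by -0.17 when its 3 probe sets were averaged (limma adjusted p = 0.0466). Markers of antibody-forming cells moved with the groups. Of 6 plasma cell markers 4 fell and 1 rose, and their log-scale values summed to 51.2 and 51.3 on the IL-10+ arrays against 62.0 and 62.3 on the others. That gap lay in Igha (-5.45), Jchain (-2.75) and Mzb1 (-2.75), while Sdc1 (-0.31), Xbp1 (-0.03) and Prdm1 (0.39) differed little. Of 9 B cell markers 5 fell and 0 rose, with sums of 55.5 and 55.8 against 59.9 and 60.9. The 10 myeloid and dendritic cell markers had 3 higher and 1 lower, with sums from 62.2 to 63.1, the 5 NK cell markers had 1 higher and 2 lower, with sums from 34.2 to 34.7, and of 2 CD8 markers 1 fell. The part of such cells in the differences of the members was not tested, and in these bulk samples fewer cells of a type and less RNA per cell cannot be told apart.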

How the data were processed

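RNA of 2 IL-10+ and 2 IL-10- samples was hybridized to Affymetrix Mouse Genome arrays. Intensities were normalized by the authors in R with variance stabilization, and the deposited table holds 1 value for each probe set on each array, taken here as log2; how probes were summarised is not given in the sources used here. The base is not stated for the table itself, and legends of the study give differences on these arrays as ln(fold change). On a natural log reading, the same numbers of member probe sets passed the threshold of the study. Variance stabilization compresses the differences of dim probe sets. The 64 control probe sets were left out. The groups were compared over the other 45037 with limma 3.58.1 in R 4.3.3 (lmFit, eBayes, two-sided, Benjamini-Hochberg adjustment), with 2 residual and 5.44 prior degrees of freedom. The step was tested on simulated data. With 2 arrays against 2, an exact test of 1 probe set cannot go below p = 0.333, and the number of arrays limits the precision.

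Symbols follow the annotation of the platform, of uncertain age, in which 34958 probe sets carry 1 gene and 932 carry several. The latter, and 9211 unnamed here, stood for no gene. Matching gene identifiers to RefSeq changed 0 symbols. The brightest probe set of a gene is the one with the highest mean over the 4 arrays. The members and lists were chosen with earlier results of these data known. Named were all members with all probe sets, Il10, up to 3 passing genes per pathway list by size, and the direct partners Fasl, Tnf, Tnfsf10, Casp8, Mlkl, Birc2 and Birc3. Alternatives were quantile normalization, median centring, only probe sets above the median level, an intensity trend or robust estimation in the prior, each array left out, the threshold of the study, leaving out probe sets with the suffix x or s, and averaging the probe sets of each gene. Promoter windows came from RefSeq (GRCm38.p6); protein sequences were not used here. Python 3.11.15 with matplotlib 3.10.9 drew the figures.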

Additional observations from a re-analysis of the deposited data

Results flagged for a closer look

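Control transcripts outside the comparison of genes differed between the groups. For dap, lys, phe and thr, the poly-A RNA added for labelling, the median difference over 8 probe sets at the 5' end was 1.16 on the log2 scale, higher in IL-10+ samples, and the median over 8 probe sets at the 3' end was 0.07. These values were given no test.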

How the results depend on the processing

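The direction and call of Fas, of Tradd 1452622_a_at, of Cflar 1425686_at and of Traf1 1445452_at were the same in all 9 alternative settings. With 1 array left out, the lone array of a group is assumed to vary like the others. Then 3994 to 7427 of all probe sets were higher and 4676 to 8192 lower, 2 to 5 member probe sets were higher, 0 to 1 member genes by the brightest probe set were higher, and 4 to 11 pathway genes were higher. The lowest counts came without IL-10+ replicate 1 (4676 lower, 4 pathway genes) or 2 (3994 higher, 2 member probe sets), and without either 0 member genes were higher. The threshold of the study left 775 higher and 259 lower of all probe sets, and 2 higher and 0 lower of the members on either log reading. By the brightest probe set, 0 member genes were higher after median centring, and with the mean over probe sets 3 were higher and 1 lower. Differences near 0 that did not pass changed sign. After median centring these were Tnfrsf10b 1422344_s_at (-0.015) and 1421296_at (-0.066), Cflar 1453482_at (-0.055) and Mlkl (-0.039). After quantile normalization they were Tnfrsf10b 1421296_at (-0.044), Cflar 1453482_at (-0.014) and Mlkl (-0.012). With 1 array left out the ranges were -0.0045 to 0.13 for Tnfrsf10b 1422344_s_at, -0.070 to 0.090 for 1421296_at, -0.080 to 0.029 for Fadd 1446499_at, -0.12 to 0.013 for Tradd 1429117_at and -0.054 to 0.10 for Cflar 1453482_at. The cause was not tested. Of 160 member values under alternatives, 138 kept direction and call, 12 changed sign, 6 lost and 4 gained the call. No paired analysis was possible because the groups share no replicate numbers.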
